A study of Mus musculus with 69 samples.

Results

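Replication-dependent histone genes were followed in the ventral striatum of 69 mice of a selected line and its control stock. The members are the rows of the gene table whose name begins with Hist1h, Hist2h, Hist3h or Hist4h. Of 67 such rows among 42279 genes, 12 had a mean count of at least 5 per library and are described here. The HDID1 line, selected over generations for the blood ethanol it reaches in a limited drinking session, gave 17 females and 18 males, and its control, the heterogeneous stock HSNpt, gave 17 females and 17 males. Mice of both lines, controls included, had drunk 20% ethanol from 1 bottle in a 4-day test, for 2 h on the early days and 4 h on the last, and tissue was taken 3 weeks later. HDID1 is 1 selected population, so the mice of a line are replicates of that population and not of selection. HSNpt mice are genetically mixed, and age is not given in the sources used here.

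Dividing cells make most of their histones from these genes during DNA synthesis. The genes lie in clusters and mostly lack introns, and their mRNAs end in a stem-loop that the protein SLBP binds, in place of a poly-A tail. In cells that have stopped dividing, some of the genes are known to give longer, polyadenylated mRNAs that run past the stem-loop. H2A, H2B, H3 and H4 form the core of the nucleosome, and H1 binds the DNA between nucleosomes.

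Libraries were poly-A selected, and a library held 14077983 to 35257422 counts (median 17646316). Levels are CPM, that is counts scaled to TMM library sizes, 1 library per mouse. In the smallest library 1 count was worth 0.0758 CPM, and a count of 0 allowed up to 3 counts or 0.228 CPM, for counting error only. The 5′ balance of a library is the typical log2 ratio of reads in the 5′ exons to reads in the 3′ exons of long genes, set against the median library, so that a low value means that 5′ reads were short. It ran from -2.93 to 0.210, and its median was -0.0078 in HDID1 and 0.107 in HSNpt. By this measure or by their striatal marker score, 9 libraries stood apart, 7 of HDID1 and 2 of HSNpt. Line differences of the members and their slopes on library measures were also fitted without them. Results within each sex, for pairs of members and for other gene lists are given over all libraries only.

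The tissue label was checked with markers of spiny neurons, the main cells of the striatum. The summed level of the 11 markers in the table ran from 694 to 9878 CPM in HDID1, with a median of 6485, and from 2069 to 12765 CPM in HSNpt, with a median of 8259. Of these markers, 5 were lower in HDID1 and 0 higher. Of all genes tested, 5.95% were lower and 5.41% higher. Hypothalamic neuropeptide genes were higher for 4 of 6, with sums of 5.53 to 1662 CPM in HDID1 and 2.79 to 448 CPM in HSNpt. Neuroblast and progenitor genes were higher for 5 of 8, with sums of 59.001 to 141 CPM in HDID1 and 53.1 to 126 CPM in HSNpt. No gene of these lists was at 0 in every library. Their part in the results below was not tested, and in bulk tissue fewer cells of a type and less RNA per cell cannot be told apart.

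The stem-loop is shown first because the usual histone mRNA ends at it and the longer form runs past it. Searching the GENCODE M21 transcripts (GRCm38) for the 16-letter histone stem-loop found it in 8 of the 12 members. In the lines that follow, capitals mark the stem-loop, the 5 bases on each side are in lower case, and the letters read 5′ to 3′ on the gene's strand. The interval before each sequence is that of the stem-loop on GRCm38.
Hist1h1c, plus strand, chr13:23739512-23739527: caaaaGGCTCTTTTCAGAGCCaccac
Hist1h2be, minus strand, chr13:23585531-23585546: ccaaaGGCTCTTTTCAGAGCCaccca
Hist1h1e, minus strand, chr13:23621782-23621797: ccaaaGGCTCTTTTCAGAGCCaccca
Hist1h4i, minus strand, chr13:22040966-22040981: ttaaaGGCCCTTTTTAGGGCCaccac
Hist1h4h, plus strand, chr13:23531458-23531473: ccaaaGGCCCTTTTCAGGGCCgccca
Hist2h3c2, minus strand, chr3:96238485-96238500: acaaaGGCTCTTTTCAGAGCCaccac
Hist2h4, minus strand, chr3:96262939-96262954: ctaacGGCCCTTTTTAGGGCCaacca
Hist3h2ba, plus strand, chr11:58949349-58949364: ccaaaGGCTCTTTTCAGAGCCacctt
The H1, H2B and H3 members carried the same 16 letters, and the H4 members carried another stem, identical in Hist1h4i and Hist2h4 and not in Hist1h4h. The letters were not in the longest annotated transcripts of Hist1h2bc, Hist2h2be, Hist1h2al and Hist2h2bb, the only ones searched. Those of Hist2h2bb and Hist1h2al hold only 381 and 339 bases, and sequence past their ends was not searched.

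In 6 of the 12 members the deposited exons ran more than 100 bases past the stem-loop. Hist1h2be had 1789 exonic bases after it, Hist2h4 had 1257, Hist1h1c had 840, Hist2h3c2 had 377, Hist1h4i had 330 and Hist3h2ba had 169. Hist1h4h had 49 and Hist1h1e had 27. Over the 8 members the median was 353.5 bases. Among the 55 histone rows below the threshold, 34 held the stem-loop in their transcript, the median after it was 28.5 bases and 5 had more than 100. The letters AATAAA or ATTAAA, the usual poly-A signal, stood in the last 50 bases of the transcript in 7 of 12 members and in 7 of the 55 other rows, against 33.8% of all 141672 GENCODE transcripts. The stem-loop letters occur in 0.105% of those transcripts. These are properties of the annotation, and the ends of the RNA were not measured. A stem-loop or poly-A signal past the annotated end of a transcript could not be found.

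Together the 12 members held an average of 1140 counts per library, and the other 55 rows held 43.1. Just inside the threshold lay Hist1h4h with a mean count of 8.52, and just outside it Hist1h4k with 3.39, Hist2h2ac with 3.35 and Hist1h3d with 3.22. Hist1h2ao and Hist1h2ap had no read in any library. By chromosome, 7 of 56 rows on chromosome 13, 4 of 8 on chromosome 3, 1 of 2 on chromosome 11 and 0 of 1 on chromosome 6 were members.

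Levels between genes are compared per kb of deposited exon. The H2B genes Hist3h2ba, at 21.5 CPM per kb, and Hist1h2bc, at 19.8, and the linker histone gene Hist1h1c, at 12.2, stood above the rest. The H4 gene Hist1h4i had 2.65 CPM per kb. The place of Hist1h2al depended on the line, with 6.39 CPM per kb in HSNpt and 1.19 in HDID1. On chromosome 3 the order was Hist2h2be with 1.90, Hist2h3c2 with 1.49, Hist2h4 with 0.501 and Hist2h2bb with 0.427 CPM per kb. The remaining chromosome 13 members lay at 1.57 for Hist1h2be, 1.02 for Hist1h4h and 0.728 CPM per kb for Hist1h1e. Neighbours in this order, such as Hist3h2ba and Hist1h2bc, overlapped widely across mice, with 8.23 to 32.7 CPM and 6.17 to 39.9 CPM in all. These ranges are plain CPM, not per kb, for genes of 614 and 736 exonic bases. Whether the order held within each mouse was not tested.

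Some of these levels depend on how reads of near-identical copies were assigned, which the sources used here do not give. Of all 50-base stretches of the annotated transcript, another gene's transcript held 63.5% for Hist2h3c2, 67.6% for Hist1h2al, 45.8% for Hist1h4h, 32.004% for Hist1h1e, 30.6% for Hist1h2bc and 28.9% for Hist1h4i. For Hist3h2ba it was 22.1%, for Hist1h2be 17.9%, for Hist1h1c 8.54% and for Hist2h4 1.01%. Hist2h2be shared none. The annotated transcript of Hist2h2bb, 381 bases of the first deposited exon, lies wholly (100%) within overlapping gene models, the antisense Gm20628 among them. Its second deposited exon was not searched. The shares are those of the longest annotated transcript, which can differ from the deposited exons in which reads were counted. Transcript and exons hold 1930 and 748 bases for Hist1h1e, 1156 and 736 for Hist1h2bc, and 2506 and 2229 for Hist1h2be. Values of the members with large shares are uncertain, by an amount that the shares do not give.

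Between the lines, 3 members were lower in HDID1 and 1 was higher. The H2A pseudogene Hist1h2al, the H2B gene Hist2h2bb and the H4 gene Hist2h4 fell, and the H2B gene Hist2h2be rose. Of all 17538 genes tested, 11.4% passed at an adjusted p under 0.05, 5.41% higher and 5.95% lower in HDID1. The median log2 fold change of HDID1 over HSNpt was -0.10 over the 12 members and 0.0059 over all genes. All of these changes except that of Hist1h2al lay in the chromosome 3 cluster, where Hist2h3c2 did not pass. Within females 3 of the 12 members passed, where 1.57% of genes did, and within males 4 passed, where 3.94% did.

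**Figure D1:**
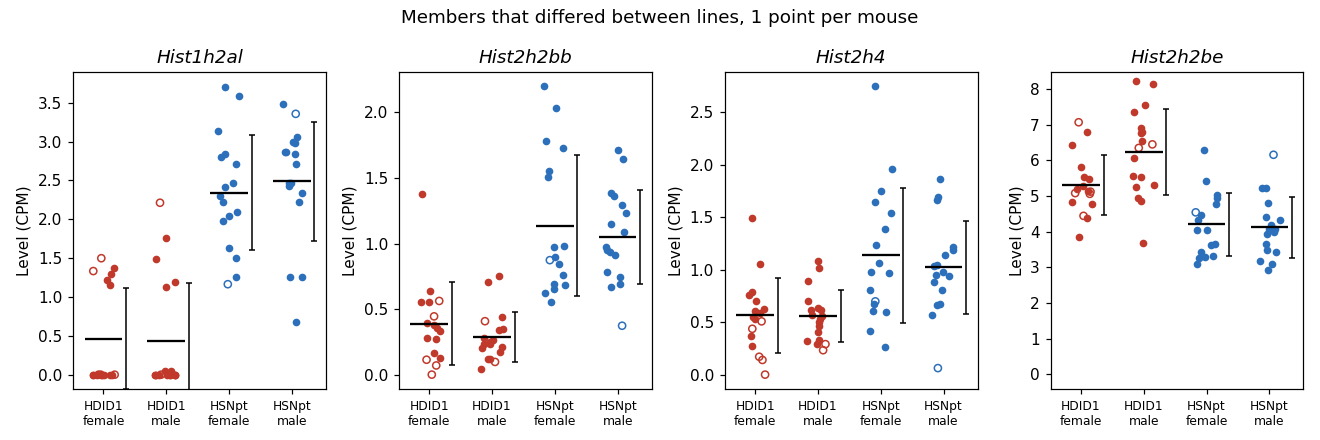
Level in CPM of Hist1h2al, Hist2h2bb, Hist2h4 and Hist2h2be in each mouse by line and sex. Points are mice, open points are the 9 libraries that stood apart, black lines are group means and bars the SD. The HDID1 mice sit low for the first 3 genes, with Hist1h2al at or near 0 in 24 of 35, and high for Hist2h2be.

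Hist2h2be (chr3:96221119-96223738, plus strand) encodes a core H2B and has 1 exon of 2620 bases. Its level ran from 3.67 to 8.21 CPM in HDID1, with a median of 5.52 and a mean of 5.79 ± 1.13 (SD, n = 35), and from 2.93 to 6.30 CPM in HSNpt, with a median of 4.06 and a mean of 4.17 ± 0.859 (SD, n = 34). The lines overlapped, yet 33 of 35 HDID1 mice exceeded the median of HSNpt and 13 exceeded every HSNpt mouse. Hist2h2be rose by 0.46 on the log2 scale (SE 0.07, adjusted p = 1.2e-06), a 1.38-fold difference. The log2 fold change was 0.59 (SE 0.10, adjusted p = 2.63e-05) in males and 0.33 (SE 0.10, adjusted p = 0.0569) in females. The difference between the sexes had an adjusted p of 0.949, so the effects were not shown to differ.

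Hist2h2bb (chr3:96269721-96279001, plus strand) is a second H2B gene of the cluster, listed with 2 exons. Its level ran from 0 to 1.38 CPM in HDID1, with a median of 0.277 and a mean of 0.338 ± 0.261 (SD, n = 35), and from 0.373 to 2.20 CPM in HSNpt, with a median of 0.959 and a mean of 1.10 ± 0.453 (SD, n = 34). In HDID1, 1 mouse of 35 exceeded the median of HSNpt, and 23 lay below every HSNpt mouse. Hist2h2bb fell by 1.68 on the log2 scale (SE 0.19, adjusted p = 1.55e-09), a 3.20-fold difference. The log2 fold change was -1.52 (SE 0.27, adjusted p = 0.000315) in females and -1.84 (SE 0.27, adjusted p = 4.51e-06) in males.

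Both exons of Hist2h2bb had lower mean levels in HDID1. The first, of 412 bases, holds the coding sequence and had a mean of 0.188 ± 0.115 CPM in HDID1 and 0.405 ± 0.204 CPM in HSNpt (SD, n = 35 and 34). The second, of 1254 bases, lies downstream and had 0.150 ± 0.190 CPM in HDID1 and 0.690 ± 0.337 CPM in HSNpt. The first exon took 55.9% of the gene's reads in HDID1 and 37.5% in HSNpt. That shift in exon usage did not pass (Simes p = 0.0169, adjusted p = 0.207, edgeR's diffSpliceDGE), where 4.50% of 12974 genes did. Gm20628, whose exons overlap the first exon on the other strand, had 0.876 ± 0.338 CPM in HDID1 and 0.911 ± 0.276 CPM in HSNpt, and did not pass (log2 fold change -0.06, SE 0.12, adjusted p = 0.780). Strand in the counting is not stated, so reads of the pair cannot be told apart there.

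RefSeq (GRCm38.p6) gave promoters for 8 of the 12 members, and the 250 bases before the start were searched on both strands for the octamer ATTTGCAT, a known element of H2B promoters, for CCAAT and for TATAAA. None of the 3 motifs holds the letters of another. The octamer was in the promoters of Hist2h2bb and Hist1h2be, 2 of the 8, against 1.60% of all 32851 promoters. CCAAT was in 5 of the 8 against 33.8% of all, and TATAAA in 3 of the 8 against 12.4%. Hist1h2be has 2 promoters in the table, and the octamer is in the one that adjoins the deposited exon. Both promoters with the octamer are shown because Hist2h2bb had the clearest change in the cluster and Hist1h2be belongs to the same histone class. Capitals mark CCAAT, its reverse complement and the octamer.
Hist2h2bb, plus strand, chr3:96269450-96269699: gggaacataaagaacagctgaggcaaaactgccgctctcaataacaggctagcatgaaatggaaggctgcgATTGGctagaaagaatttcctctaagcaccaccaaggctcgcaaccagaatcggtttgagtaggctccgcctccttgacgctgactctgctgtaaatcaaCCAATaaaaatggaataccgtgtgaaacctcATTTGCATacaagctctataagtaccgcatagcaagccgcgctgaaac
Hist1h2be, minus strand, chr13:23585971-23586220: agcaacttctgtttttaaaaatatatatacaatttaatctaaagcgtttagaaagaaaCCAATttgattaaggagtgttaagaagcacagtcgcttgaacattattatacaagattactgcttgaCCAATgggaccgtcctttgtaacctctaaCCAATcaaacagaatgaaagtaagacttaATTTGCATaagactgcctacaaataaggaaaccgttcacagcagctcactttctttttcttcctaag
The octamer began 48 bases before the start in Hist2h2bb and 67 before it in Hist1h2be, each downstream of the nearest CCAAT, at 79 and 96 bases. Binding was not measured, and a match is a description of these letters only.

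Hist2h4 (chr3:96261682-96263311, minus strand) encodes histone H4 and carries the stem-loop shown above with a long stretch after it. Its level ran from 0 to 1.49 CPM in HDID1, with a median of 0.550 and a mean of 0.561 ± 0.299 (SD, n = 35), and from 0.0622 to 2.75 CPM in HSNpt, with a median of 0.981 and a mean of 1.08 ± 0.546 (SD, n = 34). The lines overlapped, where 4 of 35 in HDID1 exceeded the median of HSNpt and 8 HSNpt mice above every HDID1 mouse. Hist2h4 fell by 0.93 on the log2 scale (SE 0.19, adjusted p = 0.000512), a 1.90-fold difference. With 5′ balance as a covariate the log2 fold change was -0.66 (SE 0.15, adjusted p = 0.00133), and without the libraries that stood apart it was -0.79 (SE 0.17, adjusted p = 0.000911). It passed in females (-0.997, SE 0.27, adjusted p = 0.0383) and in males (-0.86, SE 0.27, adjusted p = 0.0483).

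Hist2h3c2 (chr3:96238108-96239127, minus strand), an H3 gene, lies between these genes and did not pass. Its level ran from 0.604 to 3.36 CPM in HDID1, with a median of 1.35, and from 0.825 to 4.10 CPM in HSNpt, with a median of 1.43. The log2 fold change was -0.08 (SE 0.14, adjusted p = 0.719), with a 95% interval of -0.35 to 0.19. The summed level of the 4 chromosome 3 members was 8.16 ± 1.28 CPM in HDID1 and 7.90 ± 1.19 CPM in HSNpt (SD, n = 35 and 34), so the sum carries opposite changes of its members.

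Genes between the histone genes of the cluster were looked at after the members' values were known. Within 100000 bases of the chromosome 3 members, 11 other genes were tested, of which 2 were higher and 3 lower in HDID1. Of all genes tested, 5.41% were higher and 5.95% lower. The lower ones were Gm20632, Gm20633 and Gm20627, unnamed gene models that lie between Hist2h2be and Hist2h4. Gm20632 overlaps exons of Hist2h2aa1, a row below the threshold, on the other strand. Transcripts of Gm20632 and Gm20633 also hold some of the shared stretches of the Hist1h2al transcript described above, as do those of many H2A genes. How reads of such stretches were assigned is not given, and their part in the changes of these gene models was not tested. Gm20632 had 1.15 ± 0.355 CPM in HDID1 and 1.70 ± 0.363 CPM in HSNpt (log2 fold change -0.56, SE 0.10, adjusted p = 2.72e-05). Gm20633 had 0.781 ± 0.303 and 1.32 ± 0.407 CPM (-0.76, SE 0.13, adjusted p = 2.93e-05), and Gm20627 had 0.253 ± 0.188 and 0.481 ± 0.252 CPM (-0.90, SE 0.21, adjusted p = 0.00259). All 3 also passed without the libraries that stood apart, at log2 fold changes of -0.70, -0.67 and -0.92. On the other side of Hist2h2be, Mtmr11, a phosphatase-like gene, was higher (0.35, SE 0.08, adjusted p = 0.00151), as was Gm17690 (0.31, SE 0.10, adjusted p = 0.0387), which no longer passed without those libraries (0.13, adjusted p = 0.336). The spans of Mtmr11 and Gm17690 overlap on opposite strands, and strand in the counting is not stated. Sv2a, which encodes a synaptic vesicle protein, lies between Mtmr11 and Hist2h2be and did not pass (0.06, SE 0.05, adjusted p = 0.368). Around the chromosome 11 member 0 of 10 tested neighbours passed, and around the chromosome 13 cluster 0 of 7, where 11.4% of all genes did.

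**Figure D2:**
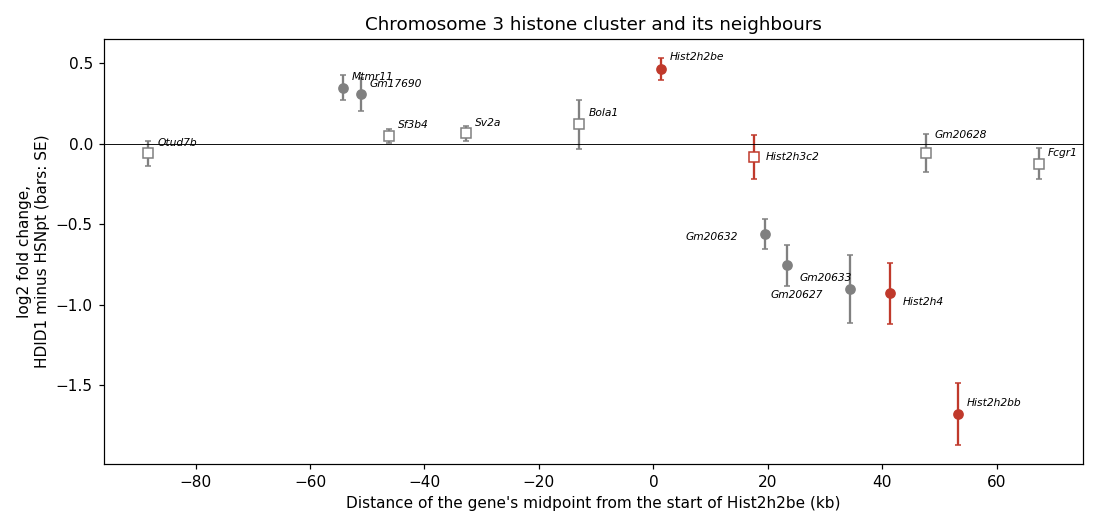
Log2 fold change of HDID1 over HSNpt, with SE bars, for the 4 members (red) and 11 tested neighbours (grey) on chromosome 3, against distance in kb from the start of Hist2h2be. Filled circles passed at an adjusted p under 0.05 and open squares did not. Hist2h2be lies at 0.46, and the genes that passed on its right, up to Hist2h2bb at -1.68, were all lower, with Hist2h3c2 and Gm20628 among them near 0.

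Hist1h2al (chr13:51202688-51203065, minus strand) is annotated in GENCODE as a processed pseudogene of H2A, and it lies far from the chromosome 13 cluster. In HDID1, 24 of 35 mice had 0 or 1 count, 22 of them 0, and the other 11 had 20 to 38 counts with none between. These 11 mice had 1.12 to 2.21 CPM, with a median of 1.33. Low and high mice were found in both sexes, with 11 of 17 females and 13 of 18 males at 0 or 1 count. Every HSNpt mouse had reads, at 0.684 to 3.70 CPM with a median of 2.47. None in HDID1 exceeded the median of HSNpt, and 24 HSNpt mice lay above every HDID1 mouse.

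Over the line means Hist1h2al fell by 2.42 on the log2 scale (SE 0.39, adjusted p = 7.67e-06), from 2.42 ± 0.746 CPM in HSNpt (SD, n = 34) to 0.450 ± 0.691 CPM in HDID1 (SD, n = 35). The SD in HDID1 exceeds the mean because the mice form separate low and high clusters. It passed in females (-2.33, SE 0.55, adjusted p = 0.0131) and in males (-2.50, SE 0.54, adjusted p = 0.00321). Spin1, the only tested neighbour within 100000 bases, had 178 ± 30.1 CPM in HDID1 and 187 ± 23.1 CPM in HSNpt and did not pass (adjusted p = 0.406).

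The other members on chromosome 13 did not pass for line. Hist1h2be (chr13:23583742-23585970, minus strand), an H2B gene, came nearest, at 3.11 ± 1.07 CPM in HDID1 and 3.91 ± 1.51 CPM in HSNpt (SD, n = 35 and 34). It lay above the HSNpt median in 7 of 35 HDID1 mice, and its log2 fold change was -0.33 (SE 0.12, adjusted p = 0.0687). With 5′ balance as a covariate it passed, at -0.38 (SE 0.12, adjusted p = 0.0283).

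Hist1h1c (chr13:23738808-23740367, plus strand), the linker histone gene with the most reads, had 18.2 ± 5.12 CPM in HDID1 and 19.7 ± 6.16 CPM in HSNpt (log2 fold change -0.12, 95% interval -0.32 to 0.08). Hist1h2bc (chr13:23684199-23692488, plus strand) had 14.3 ± 7.19 and 14.9 ± 6.999 CPM (-0.07, -0.35 to 0.22). The H4 gene Hist1h4i (chr13:22040636-22041362, minus strand) had 1.99 ± 1.08 and 1.86 ± 0.904 CPM (0.10, -0.23 to 0.42). Hist1h4h (chr13:23531050-23531522, plus strand), also H4, had 0.566 ± 0.569 and 0.392 ± 0.349 CPM (0.51, -0.03 to 1.05), and the linker gene Hist1h1e (chr13:23621755-23622502, minus strand) had 0.523 ± 0.325 and 0.568 ± 0.264 CPM (-0.15, -0.52 to 0.21). On chromosome 11, Hist3h2ba (chr11:58948920-58949533, plus strand) had 13.5 ± 5.12 CPM in HDID1 and 12.96 ± 4.68 CPM in HSNpt (0.06, -0.15 to 0.26). The signs for Hist3h2ba and Hist1h4i turned with 5′ balance as a covariate, to -0.10 for each, so no direction is given for them. In the same fit the log2 fold change was -0.28 for Hist1h2bc (SE 0.10, adjusted p = 0.0520), -0.24 for Hist2h3c2 (SE 0.10, adjusted p = 0.0987), -0.21 for Hist1h1c (SE 0.09, adjusted p = 0.105) and 0.13 for Hist1h4h (SE 0.21, adjusted p = 0.716). Hist1h1e was at -0.04 (SE 0.18, adjusted p = 0.906).

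**Figure D3:**
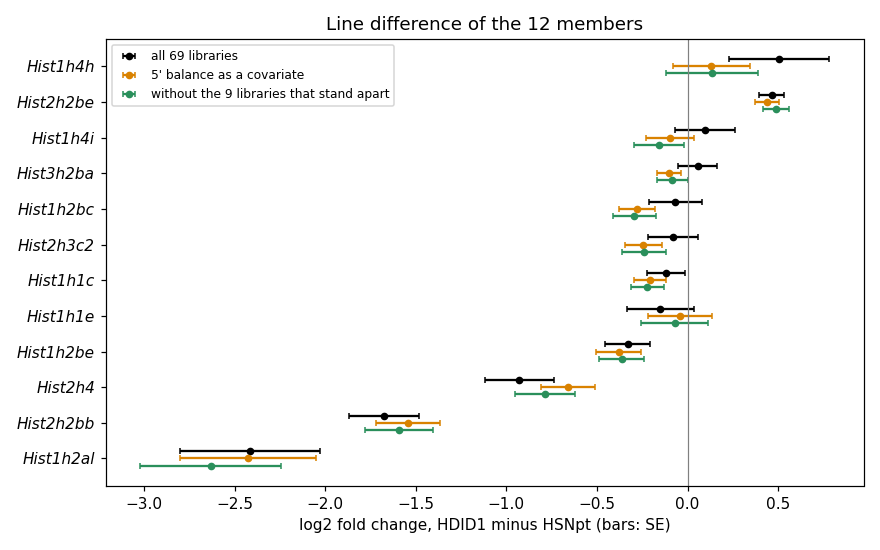
Log2 fold change of HDID1 over HSNpt with SE bars for each of the 12 members, over all 69 libraries (black), with 5′ balance as a covariate (orange) and without the 9 libraries that stood apart (green). Hist1h2al, Hist2h2bb and Hist2h4 lie below 0 and Hist2h2be above 0 in all 3 fits. Of the others, Hist1h4h moves most between fits, from 0.51 to 0.13.

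Hist1h2bc is the other member listed with 2 exons, of 423 and 313 bases. The first, with the coding sequence, took 33.97% of the reads in HDID1 and 33.9% in HSNpt. Per kb the second exon stood higher, at 30.2 CPM per kb in HDID1 and 31.6 in HSNpt, against 11.3 and 11.9 for the first. Exon usage did not pass between lines (adjusted p = 1.00), and 0 of the 2 members tested passed at an adjusted p under 0.05.

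No member passed for sex, where 0.108% of all genes did. Hist1h1e had an unadjusted p of 0.0355 (male minus female log2 fold change 0.40, SE 0.19, adjusted p = 0.571), and it was the only member under 0.05 before adjustment. No gene passed the test of line by sex in edgeR, with 911 genes at an unadjusted p under 0.05 and 0 members among them. No gene passed for the slope on the blood ethanol reading within groups, with 323 genes at an unadjusted p under 0.05 and again 0 members.

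The level of most members moved with the 5′ balance of the library. On a slope per SD of 5′ balance, which is 0.577 in log2 units, 9 of 12 members passed, where 74.6% of all genes did, so this share is close to the background. Negative slopes, meaning higher levels where 5′ reads were short, were found for 6 members against 37.4% of all genes, and positive slopes for 3 against 37.2%. The steepest negative slopes were those of Hist1h4h (-0.63, SE 0.09), Hist1h2bc (-0.43, SE 0.05) and Hist1h4i (-0.42, SE 0.06), and Hist2h3c2, Hist3h2ba and Hist1h1c followed at -0.36, -0.35 and -0.22. The positive slopes were those of Hist2h4 (0.86, SE 0.12), Hist2h2bb (0.46, SE 0.12) and Hist1h1e (0.39, SE 0.12). Adjusted p-values of the 9 ran from 3.87e-16 for Hist3h2ba to 0.00199 for Hist1h1e.

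The 3 libraries of lowest 5′ balance, HDID1 females 10 and 6 and HSNpt male 8, show the pattern in both lines. In them Hist1h2bc had 33.3, 38.2 and 39.9 CPM from lowest to highest, above all 66 other libraries, which reached 28.9 CPM with a median of 12.3. Hist1h4h had 1.62 to 3.08 CPM there, against a highest value of 1.55 and a median of 0.369 CPM elsewhere. Hist2h4 had 0, 0.0622 and 0.140 CPM, below the 0.171 CPM of the lowest other library and their median of 0.699 CPM.

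Without the 9 libraries that stood apart, 7 members still passed, where 53.8% of all genes did. The slope was -0.89 (SE 0.10) for Hist3h2ba, -0.93 (SE 0.19) for Hist1h2bc and 1.15 (SE 0.27) for Hist2h4, in the same units. Hist2h2bb (0.50, SE 0.33, adjusted p = 0.200) and Hist1h1e (0.26, SE 0.34, adjusted p = 0.548) no longer passed. Hist2h2be, Hist1h2be and Hist1h2al had slopes of -0.07, -0.29 and -0.10 without those libraries and did not pass. Over all 69 libraries, Hist2h2be had a slope of -0.07 (SE 0.03, adjusted p = 0.0723) and Hist1h2be of -0.13 (SE 0.06, adjusted p = 0.0558). Hist1h2al had -0.03 there (SE 0.21, adjusted p = 0.913). The slope of Hist1h2be passed with edgeR's filterByExpr (-0.14, adjusted p = 0.0467) and with 5′ balance taken from the first and last exons (-0.14, adjusted p = 0.0419), which made 10 members.

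**Figure D4:**
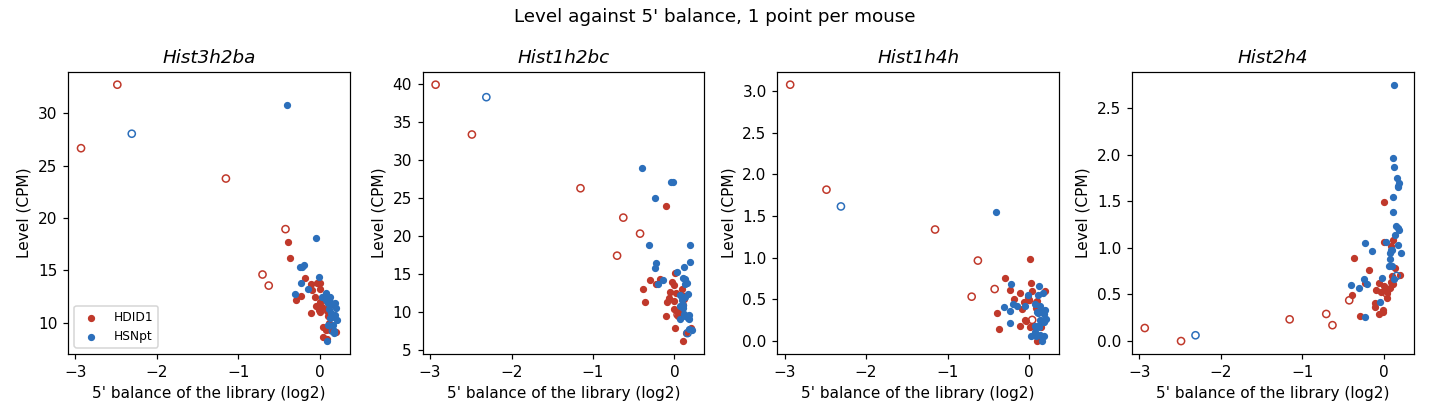
Level in CPM of Hist3h2ba, Hist1h2bc, Hist1h4h and Hist2h4 against the 5′ balance (log2) of each library, 1 point per mouse, HDID1 in red and HSNpt in blue, with open points for the 9 libraries that stood apart. The 3 libraries at the left are high for the first 3 genes and at 0 to 0.140 CPM for Hist2h4.

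Because histone mRNA often lacks a poly-A tail, levels were also set against 100 other RNAs known to lack one, mainly small nucleolar RNAs and Rn7sk, a small nuclear RNA. Their summed level ran from 11.1 to 35.7 CPM, with a median of 14.9. Per SD of its log2 value, 6 of 12 members passed, where 47.7% of 17528 genes did. All 6 slopes were positive, so 6 of 12 members passed with a positive slope, where 26.5% of all genes did. Of the 8362 genes that passed, 4644 had a positive slope. The steepest were Hist1h4h at 0.59 (SE 0.10), Hist1h4i at 0.26 (SE 0.08) and Hist3h2ba at 0.23 (SE 0.04). Hist1h2bc, Hist2h3c2 and Hist1h1c had 0.23, 0.19 and 0.16. Without the libraries that stood apart 3 members passed, where 19.5% of genes did: Hist1h4h at 0.39 (SE 0.11), Hist1h1e at 0.28 (SE 0.09) and Hist3h2ba at 0.13 (SE 0.04). The highest summed levels, 35.7 CPM in HSNpt female 2 and 30.5 CPM in HDID1 male 1, stayed in that fit. Hist1h4h, Hist1h1e and Hist3h2ba had 1.55, 0.776 and 30.8 CPM in HSNpt female 2. In HDID1 male 1 they had 0.604, 1.36 and 9.06 CPM. Slopes without HSNpt female 2 and HDID1 male 1 were not fitted, so these slopes may rest on them. Many small nucleolar RNAs lie in introns of other genes, and reads of unspliced RNA there cannot be told apart from them.

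Members were compared across mice on log2(CPM + 0.5) with the 4 group means removed. Hist1h2al was left out because its HDID1 mice form separate clusters, and 55 pairs of the other 11 were tested with 100000 permutations. Since 74.6% of all genes moved with 5′ balance, values are also given with it removed. The p-values are adjusted over the 55 pairs. Pairs of other genes were not tested, so the values are not shown to be particular to histone genes.

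The closest pair was Hist1h1c with Hist1h2bc (r = 0.839, rho = 0.865, adjusted permutation p = 2.39e-05 and 3.44e-05 from the smallest p that these permutations can give). Without the 2 mice farthest from the median of Hist1h1c r was 0.835, within HDID1 rho was 0.833 and within HSNpt 0.907, and with 5′ balance removed it was 0.801. Hist1h2bc with Hist2h3c2, on another chromosome, had r = 0.804 and rho = 0.826 (the same adjusted permutation p-values). Its r without the 2 farthest mice was 0.750, and rho was 0.852 in HDID1, 0.796 in HSNpt and 0.666 with 5′ balance removed.

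Hist3h2ba and Hist2h4 moved against each other (r = -0.584, rho = -0.493, adjusted permutation p = 2.39e-05 and 8.25e-05), with r = -0.537 without the 2 farthest mice. Within lines rho was -0.473 in HDID1 and -0.539 in HSNpt, and with 5′ balance removed it was -0.138. Inside the chromosome 3 cluster, Hist2h2be and Hist2h2bb moved against each other within groups too (r = -0.487, rho = -0.458, adjusted permutation p = 0.000148 and 0.000400). There r was -0.517 without the 2 farthest mice, rho was -0.350 in HDID1 and -0.529 in HSNpt, and with 5′ balance removed it was -0.415. Hist2h4 and Hist2h2bb rose together (r = 0.604, rho = 0.518, adjusted permutation p = 2.39e-05 and 3.44e-05), with r = 0.533 without the 2 farthest mice, rho of 0.464 in HDID1 and 0.529 in HSNpt, and 0.456 with 5′ balance removed.

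**Figure D5:**
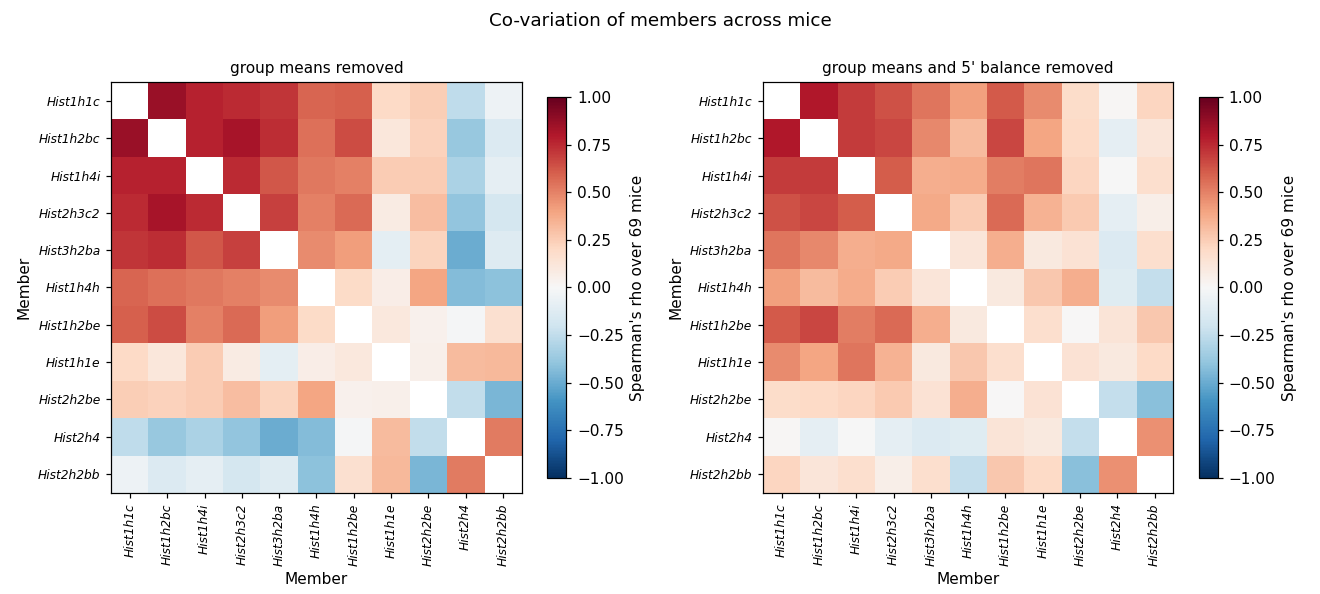
Spearman's rho over 69 mice for each pair of 11 members, with group means removed (left) and with group means and 5′ balance removed (right). Hist1h1c, Hist1h2bc, Hist1h4i and Hist2h3c2 form a block of positive values in both panels, and in the left panel Hist2h4 and Hist2h2bb are negative or near 0 against that block.

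Few genes of the machinery around histones passed for line over all 69 libraries. Their values without the libraries that stood apart are not given. Of 28 genes of histone mRNA processing, 1 was higher in HDID1 and 0 were lower, with a median log2 fold change of 0.03. That gene was Slbp, which encodes the stem-loop binding protein, at 18.4 ± 3.01 CPM in HDID1 and 16.01 ± 2.94 CPM in HSNpt (0.20, SE 0.06, adjusted p = 0.0241, higher than the median of HSNpt in 29 of 35 mice). Of 11 tested histone genes that act outside DNA synthesis, 2 were higher and 0 lower, with a median of 0.04. They were H2afy (0.17, SE 0.05, adjusted p = 0.0151) and H2afy2 (0.11, SE 0.04, adjusted p = 0.0462), which encode macroH2A histones.

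Of 24 histone chaperones, which carry histones to and from DNA, 2 were higher and 0 lower, with a median of 0.03. Nap1l5 was higher by 0.36 on the log2 scale (SE 0.11, adjusted p = 0.0291) and Ssrp1, a subunit of the FACT complex, 0.10 (SE 0.03, adjusted p = 0.0349). Of 30 genes of DNA replication and the cell cycle, 4 were higher and 0 lower, with a median of 0.06. These were Mcm2 (0.25, SE 0.06, adjusted p = 0.00479) and Mcm6 (0.40, SE 0.14, adjusted p = 0.0433), subunits of the replicative helicase, Cdt1, which loads it (0.32, SE 0.08, adjusted p = 0.00746), and the kinase gene Cdk2 (0.23, SE 0.08, adjusted p = 0.0433). Their shares stand beside the 5.41% of all genes that were higher, and the neuroblast and progenitor genes given above moved in the same direction.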

How the data were processed

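The deposited values are raw counts of reads for genes and for exons, not normalized by the authors, with a column for each mouse. The submitters' processing notes name the build mm10 and the tools STAR, bedtools, edgeR, FastQC and CASAVA. The sources used here give neither versions nor the strand setting of the counting. Per the labels' protocols, libraries were poly-A selected and stranded. Coordinates are those of the exon table, and sequences are from GENCODE M21 and RefSeq.

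Members and lists were chosen with earlier results of these data known. Genes with a mean count of at least 5 were scaled by TMM and tested by quasi-likelihood in edgeR (version 4.0.16, with R 4.3.3), on 4 groups of line by sex over 69 libraries, with Benjamini-Hochberg adjustment over all genes. The line effect is the mean of the HDID1 groups minus that of the HSNpt groups. The 95% intervals are normal ones from the SE. Slopes were added to the group means. Libraries stood apart when over 3 median absolute deviations from the median in 5′ balance or spiny neuron marker score. Scripts were tested on simulated data. Members that passed, those of highest level per kb or smallest p in a cluster, and the steepest slopes were named, with up to 4 passing genes of each other list. Replicate numbers are only names. Nothing says whether mice shared litters.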

Additional observations from a re-analysis of the deposited data

How the results depend on the processing

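The same 4 members passed for line under all 9 other settings (DESeq2's size factors, upper quartile scaling, 2 other filters on low counts, a robust fit, DESeq2's Wald test, both covariates and without the libraries that stood apart). Log2 fold changes ranged from -2.63 to -2.40 for Hist1h2al, -1.70 to -1.54 for Hist2h2bb, -0.96 to -0.66 for Hist2h4 and 0.44 to 0.49 for Hist2h2be. Hist1h2be passed with 5′ balance as a covariate alone. The count of all genes called for line was 1992, but 3215 with non-polyadenylated RNA as a covariate and 1300 without the libraries that stood apart; the cause was not tested. The line difference changed sign, without passing, for Hist3h2ba (-0.10 with 5′ balance as a covariate, -0.084 without those libraries) and Hist1h4i (-0.10 and -0.16). The 5′ balance slope of Hist1h2al was 0.0017 when first and last exons were compared. For non-polyadenylated RNA, 3 members passed without those libraries instead of 6. The libraries with the highest level of that RNA were not among those left out. Groups held 17 or 18 mice, so single mice were not left out in turn. No paired analysis was possible because replicate numbers were given in accession order and pair nothing. Depth limits the 55 rows below a mean count of 5, and for Hist2h2bb, Hist2h4, Hist1h1e and Hist1h4h few counts stand behind each value.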

Other observations

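The histone rows below the threshold were tested for line once, with no filter on low counts. Of 53 such rows with any read, 0 passed in edgeR, where 5.08% of all genes did, and 6 had an unadjusted p under 0.05. Mean counts among them went down to 0.0145, and rows that low could not pass. The 0 therefore says little about these rows. The row of smallest adjusted p was Hist2h2ac, an H2A gene beside Hist2h2be on chromosome 3, with 0.130 ± 0.148 CPM in HDID1 and 0.234 ± 0.125 CPM in HSNpt (SD, n = 35 and 34; log2 fold change -0.82, SE 0.29, adjusted p = 0.0879). It had no read in 8 HDID1 and 3 HSNpt mice. Next was Hist2h2aa1, in the same cluster, with 0.0535 ± 0.0526 CPM in HDID1 and 0.104 ± 0.0845 CPM in HSNpt (-0.84, SE 0.33, adjusted p = 0.138). Summed over the 55 rows, the level was 2.22 ± 0.480 CPM in HDID1 and 2.47 ± 0.663 CPM in HSNpt.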
